A study of Mus musculus with 13 samples.

Results

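The genes described here encode voltage-gated sodium channels, voltage-gated calcium channels and hyperpolarization-activated HCN channels. They were taken by name: Scn genes with a number and the letter a or b, Cacna, Cacnb and Cacng genes, and Hcn genes with a number. The rule used no measured value and found 32 of 15114 genes in the table of single neurons and 44 of 32285 genes in the table of tissue spots. All 32 were among the 44. Neurons came from the retrosplenial cortex, a midline association area, of untreated wild-type B6 mice, and were microdissected and dissociated from acute slices whose cells were pooled. They form 11 samples from 3 animals, with cells labelled anterior, medium or posterior by dissection level. The spots came from 2 flash-frozen wild-type brain sections of 10 µm on Visium slides, called S4 and S8 here, for which the labels give the tissue as brain and no treatment.

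Voltage-gated sodium channels carry the upstroke of the action potential. Their pore is formed by an alpha subunit (Scn1a, Scn2a, Scn3a, Scn8a in brain), and beta subunits such as Scn2b, Scn3b and Scn4b adjust gating and surface level. In calcium channels the Cacna1 gene forms the pore: Cav1 genes give L-type, Cav2 genes P/Q-, N- and R-type, and Cav3 genes low-threshold T-type channels, which support bursts. The alpha2delta and beta subunits bring Cav1 and Cav2 pores to the membrane, while several gamma genes (Cacng2, Cacng3, Cacng4, Cacng7, Cacng8) are best known as partners of AMPA receptors. HCN channels open on hyperpolarization and carry the h current, which in many deep-layer projection neurons shapes how dendrites sum inputs.

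The cell table held 765 cells, 32 to 80 per sample, with 2306470 to 15974543 counts per sample and medians of 54532 to 210874 counts per cell. The labelled cell type, neuron, matched the markers, since 756 cells had a count for the excitatory gene Slc17a7 and 46 for the inhibitory gene Gad1. Sections S4 and S8 held 8436518 and 6389042 counts over 1973 spots, and 162 of 1811 barcodes occurred in both sections, whose spots are separate columns. No pair of cells had identical counts (0). Animal 1 was the shallowest, with sample medians of 54532 to 80212 counts per cell.

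Cells were clustered without the channel genes and their partner genes, and 9 of 12 clusters had at least 10 cells in 2 or more animals. Cluster names below are leading genes: Thsd7a (with Tnnc2 and Scnn1a, 122 cells), Calb1 (108), Agmat (97), Qrfpr (with Mc4r and Reln, 78), Osr1 (74), Syt6 (71), Ptprm (69), Nrtn (63) and Cxcl14 (37). The Osr1 cluster is layer 6 intratelencephalic-like (markers Osr1, Oprk1, Car12) and the Syt6 cluster layer 6 corticothalamic-like (markers Syt6, Rprm, Foxp2). Each type had 4 listed markers, and the remaining marker led another cluster. Penk led the Agmat cluster, at 713 CPM (counts scaled to a common library total) against a mean elsewhere of 106 CPM. Crym led the Qrfpr cluster, at 881 CPM against a mean elsewhere of 131 CPM. The muscle-type genes Acta2 and Myl9 and the immunoglobulin gene Ighm also led the Syt6 cluster. Of the 4 inhibitory markers in the cell table, Gad1 and Gad2 were near 0 in these clusters. Sst stood at 3.42 to 11.2 CPM in the sums of animal 1. In animals 2 and 3 it stood at 1.36 CPM or less. Pvalb stood at 116, 240 and 124 CPM in the Thsd7a cluster of animals 1, 2 and 3. In the Nrtn cluster of animals 2 and 3 it stood at 259 and 42.1 CPM, and in the other 7 at 1.25 CPM or less. The part of Pvalb in the values of the Thsd7a and Nrtn clusters, and that of Sst in animal 1, was not tested.

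The 4 clusters with sums in all 3 animals (Thsd7a, Calb1, Osr1, Syt6) were each compared with the mean of the other 3 on the log scale. The test was edgeR's quasi-likelihood test with the animal as a block. A cluster near 0 pulls a mean of logs down, so a positive call need not exceed the plain mean CPM of the others. Calls needed a p under 0.05 after Benjamini-Hochberg adjustment over all 12185 genes tested. Of 32 channel genes, 27 passed the low-count filter and 18 of these were called in at least 1 cluster. The share of all genes called in at least 1 cluster was not counted. The Thsd7a cluster differed in the most of them: 15 of 27 were called, 8 higher and 7 lower, where 12.8% of all genes were called (7.47% higher, 5.38% lower). In the Calb1 cluster 4 of 27 were called, all higher, against a background of 5.77% (3.78% higher, 1.99% lower). In the Osr1 cluster 6 were called, 4 higher and 2 lower, against 5.65% (3.75% and 1.9%), and in the Syt6 cluster 9, 4 higher and 5 lower, against 7.71% (3.99% and 3.73%). The median absolute log2 fold change of the tested channel genes was 0.92 in the Thsd7a cluster, against 0.44 over all genes, and 0.66 against 0.38, 0.74 against 0.39 and 0.80 against 0.45 in the Calb1, Osr1 and Syt6 clusters.

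A second fit, added after seeing the data, took in all 9 clusters (22 sums, 13480 genes, 31 channel genes), where each cluster was set against the other 8. It called 11 channel genes in the Thsd7a cluster (background 10.2%), 5 in Calb1 (5.01%), 1 in Agmat (2.33%), 3 in Qrfpr (3.06%), 6 in Osr1 (6.61%), 6 in Syt6 (6.96%), 4 in Nrtn (3.88%) and 1 in Cxcl14 (4.74%). In the Ptprm cluster edgeR called 0 (background 1.88%). There 5 had an unadjusted p under 0.05, a cutoff at which the share of all genes was not counted. Levels below are CPM of the summed counts with the library sizes of this second fit. They are not divided by gene length, so that they compare clusters for 1 gene and not genes with each other.

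**Figure D1:**
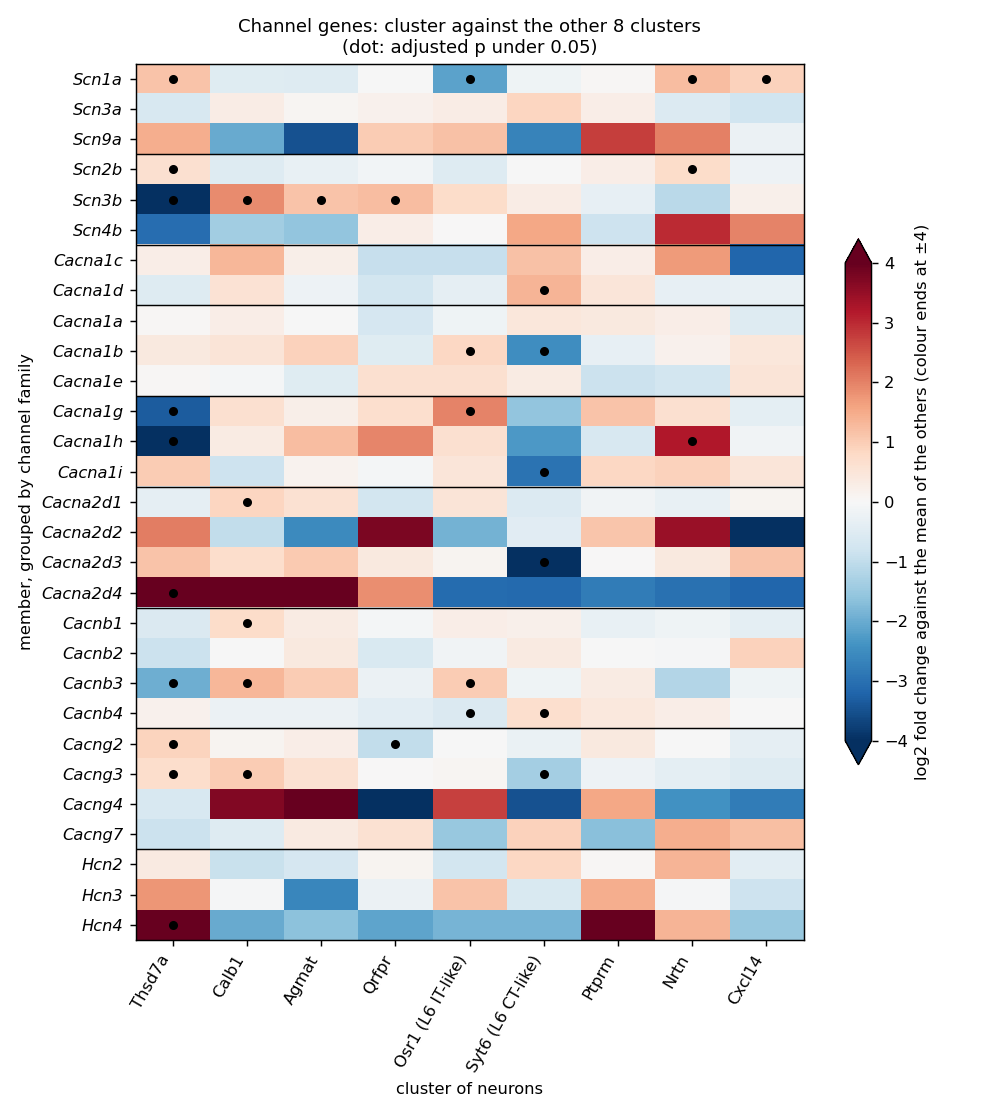
Log2 fold change of 29 channel genes (rows, grouped by family) in each of 9 clusters (columns) against the mean of the other 8, from the edgeR fit over 9 clusters; dots mark adjusted p under 0.05. The 33 dots fall on 17 genes, with Scn3b, Scn1a and Cacnb3 marked in several columns, and rows such as Hcn4, Cacna2d2, Cacna2d4 and Cacng4 take strong colours from few counts.

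Among sodium channel alpha subunits, 3 were in the cell table under the names of the rule, and Scn1a, the Nav1.1 gene, was the one with calls. It was higher in the Thsd7a cluster and lower in the Osr1 cluster. In animals 1, 2 and 3 it measured 515, 507 and 617 CPM in the Thsd7a cluster and 56.6, 61.4 and 94.7 CPM in the Osr1 cluster. The Nrtn values, 539 and 570 CPM in animals 2 and 3, lay in the range of Thsd7a. So did the Cxcl14 value of animal 3, 533 CPM, but not that of animal 2, 400 CPM. All 3 Osr1 values lay below the other sums of the 9 clusters, the lowest of which was 167 CPM in the Qrfpr cluster of animal 2. Outside the fits, clusters 10 and 11, of 24 and 11 cells, held 103 and 51.5 CPM of Scn1a. These are pooled over cells at raw totals, where Osr1 held 76.1 CPM. Against the other 3 clusters the log2 fold change was 1.85 ± 0.12 (SE, edgeR adjusted p = 7.83e-07) in Thsd7a and -2.09 ± 0.15 (adjusted p = 6.25e-06) in Osr1, and no alternative ended either call. In the fit of 9 clusters it was 1.22 ± 0.15 in Nrtn (adjusted p = 9.11e-05, but 0.0559 without animal 2) and 0.92 ± 0.16 in Cxcl14 (adjusted p = 0.00255, but 0.0766 without animal 2 and 0.115 without animal 3).

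Scn3a, the Nav1.3 gene best known from immature neurons, ranged over cluster means from 17.9 CPM (Thsd7a) to 43.7 CPM (Syt6) and was called in neither fit. Scn9a, the Nav1.7 gene of peripheral sensory neurons, was counted in 35 cells, with cluster means of at most 4.84 CPM. The Nav1.2 gene is listed in the cell table under its older name Scn2a1, which the naming rule does not take. It was counted in 761 cells.

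Among the sodium channel beta subunits, Scn3b, a non-covalently bound beta subunit, was low in the Thsd7a cluster and was counted in every cell of the Calb1 cluster. In animals 1, 2 and 3 it measured 13, 25.8 and 15.5 CPM in the Thsd7a cluster, and 580, 927 and 680 CPM in the Calb1 cluster. The Osr1 cluster held 307, 338 and 391 CPM. The Thsd7a values lay below all 19 other sums, the lowest of which was 72.5 CPM in the Nrtn cluster of animal 2. The log2 fold change was -4.51 ± 0.26 (SE, edgeR adjusted p = 2.33e-07) in Thsd7a, 2.59 ± 0.18 (adjusted p = 7e-06) in Calb1 and 1.22 ± 0.19 (adjusted p = 0.0016) in Osr1, and all 3 calls held in the alternatives run on the 4 clusters. With the library sizes of the fit of 4 clusters, the Osr1 mean was 343 CPM and the plain mean of the other clusters 341 CPM. Against 8 clusters the Osr1 value was 0.72 ± 0.24 and was not called (adjusted p = 0.0870). After thinning each cell to 50000 counts, which left out 61 cells, 18 of 115 Thsd7a cells (15.7%) and 102 of 102 Calb1 cells still had an Scn3b count. Without thinning, 29 of 122 (23.8%) and 108 of 108 cells had one.

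In the fit of 9 clusters Scn3b was also higher in Agmat (496 and 502 CPM in animals 2 and 3) and in Qrfpr (293 and 745 CPM in animals 1 and 2). The log2 fold changes were 1.15 ± 0.27 (edgeR adjusted p = 0.0266) and 1.24 ± 0.28 (adjusted p = 0.016). Neither call held when animals were left out: the Agmat call was lost without animal 1 (adjusted p = 0.0664) and without animal 3 (0.0928), the Qrfpr call without animal 1 (0.0774) and without animal 2 (0.76). In the Syt6 cluster Scn3b was called at 0.71 ± 0.19 (adjusted p = 0.0443) in the fit of 4 clusters, against a mean of logs that the Thsd7a cluster lowers. With the library sizes of that fit its mean was 282 CPM, below the plain mean of the other clusters, 362 CPM. It lay above that plain mean in 0 of 3 animals. The Syt6 call was lost without animal 1 (0.326), without animal 2 (0.285), without the shallowest cells (0.266) and without the block (0.0729).

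Scn4b, the beta subunit linked to resurgent sodium current, followed another order. It measured 31.1, 48.5 and 30.3 CPM in the Syt6 cluster of animals 1, 2 and 3, and 89.9 and 75.9 CPM in the Nrtn cluster of animals 2 and 3. The Thsd7a cluster held 0, 5.48 and 0.173 CPM. The Nrtn sums lay above all others of the 9 clusters. Outside the fits, cluster 12, of 11 cells, held 122 CPM, where Nrtn held 93.5 CPM, both pooled at raw totals. The log2 fold change of 2.98 ± 0.84 in Nrtn missed the threshold in the fit of 9 clusters (edgeR adjusted p = 0.0546). In the Syt6 cluster it was 2.97 ± 0.80 (adjusted p = 0.0402) in the fit of 4 clusters, a call lost without the animal block (0.0537), without animal 2 (0.0573), without animal 3 (0.176) and without the shallowest cells (0.0795). An Scn4b count remained in 48 of 61 thinned Nrtn cells (78.7%), 19 of 56 Syt6 cells (33.9%) and 5 of 115 Thsd7a cells (4.35%); before thinning these were 53 of 63, 28 of 71 and 9 of 122 cells.

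Scn2b, a beta subunit found across many neurons, was higher in the Thsd7a cluster by a smaller margin. It measured 410, 306 and 308 CPM in the Thsd7a cluster and 171, 138 and 187 CPM in the Calb1 cluster of animals 1, 2 and 3, and was called in Thsd7a at 0.91 ± 0.14 (edgeR adjusted p = 0.000802), a call lost with sums per sample (0.0686) and, in the fit of 9 clusters, without animal 1 (0.138). In the fit of 9 clusters it was also higher in Nrtn, at 0.74 ± 0.18 (adjusted p = 0.0219), a call lost without animal 2 (0.244) and without animal 3 (0.223).

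**Figure D2:**
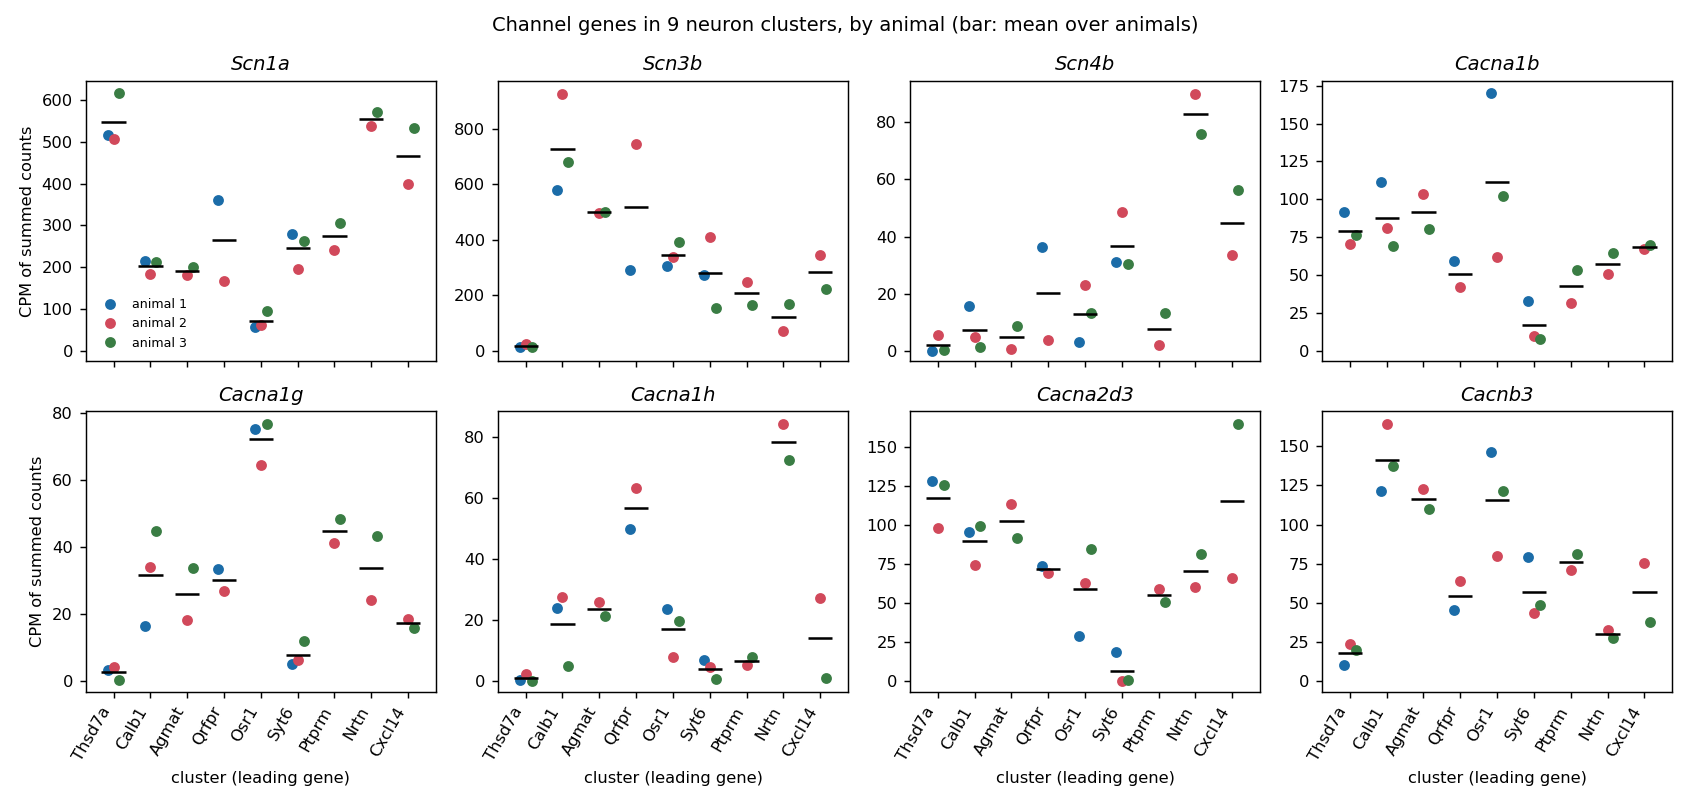
CPM of summed counts (y axis, linear, its own scale per gene) of 8 channel genes in 9 clusters (x axis), with 1 point per animal and a bar at the mean. Scn3b is at 13 to 25.8 CPM in all 3 animals of the Thsd7a cluster, where Cacnb3 is at 10.5 to 23.6 CPM, and the Syt6 cluster has the lowest mean of Cacna1b and of Cacna2d3.

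Among the calcium channel pores, the clearest change in the Cav2 group was in Cacna1b, the N-type channel gene of presynaptic terminals, which was lower in the Syt6 cluster. It measured 32.8, 9.84 and 7.85 CPM there in animals 1, 2 and 3, and 91.4, 70.5 and 76.3 CPM in the Thsd7a cluster. Within each of the 3 animals the Syt6 sum was the lowest of all clusters, while across animals the 32.8 CPM of animal 1 overlapped the Ptprm value of animal 2, 31.9 CPM. On the log2 scale the difference was -2.71 ± 0.34 (SE, edgeR adjusted p = 0.000257) in the fit of 4 clusters and -2.48 ± 0.31 (adjusted p = 4.05e-05) in the fit of 9, and all alternatives kept both calls. In the Osr1 cluster Cacna1b was called higher at 1.18 ± 0.25 (adjusted p = 0.0141), with 170, 62.0 and 102 CPM, a call lost without animal 1 (0.0635) and without animal 3 (0.194). The Osr1 sum of animal 1 also held 894 CPM of the 2 meningeal markers in the table, against at most 1.70 CPM in animals 2 and 3; its part in that value was not tested.

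Cacna2d3, Cacna1i and Cacna1b were the 3 channel genes with the largest lower calls in the Syt6 cluster, so the sequence before the start of each is shown. The windows are the 250 bases upstream of the gene's start in the RefSeq table of assembly GRCm38.p6, written in the direction of the gene, and capitals mark the GC box motif, GGGCGG, or CCGCCC, its reverse complement. Cacna1b lies on the minus strand (window chr2:24763153-24763402), Cacna2d3 on the minus strand (chr14:29721865-29722114) and Cacna1i on the plus strand (chr15:80286988-80287237).
Promoter of Cacna1b: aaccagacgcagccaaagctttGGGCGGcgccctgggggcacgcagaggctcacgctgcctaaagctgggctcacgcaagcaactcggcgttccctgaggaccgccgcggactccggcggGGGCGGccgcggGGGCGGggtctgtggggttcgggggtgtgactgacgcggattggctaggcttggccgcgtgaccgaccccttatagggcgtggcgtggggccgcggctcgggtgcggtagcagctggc
Promoter of Cacna2d3: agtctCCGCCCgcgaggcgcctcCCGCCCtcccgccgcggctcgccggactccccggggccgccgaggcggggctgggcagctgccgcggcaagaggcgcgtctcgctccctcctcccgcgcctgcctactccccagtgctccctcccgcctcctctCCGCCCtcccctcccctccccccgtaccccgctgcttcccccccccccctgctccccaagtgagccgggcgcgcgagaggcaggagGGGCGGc
Promoter of Cacna1i: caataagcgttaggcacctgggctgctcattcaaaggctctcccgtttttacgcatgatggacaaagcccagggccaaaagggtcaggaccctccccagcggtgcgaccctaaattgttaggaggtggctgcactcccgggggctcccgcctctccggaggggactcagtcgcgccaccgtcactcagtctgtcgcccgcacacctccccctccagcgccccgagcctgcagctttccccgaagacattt
The motif occurred 3 times before Cacna1b, 4 times before Cacna2d3 and 0 times before Cacna1i. The GC content of the windows was 72%, 80% and 62.4%, against a median of 52.4% over 32851 windows, of which 32.7% held the motif on either strand. RefSeq windows were found for 32 of the 44 channel gene names, and 17 of their 43 windows (39.5%) held it.

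In the L-type group (Cav1), Cacna1d, whose channels open at less depolarized voltages than those of Cacna1c, was higher in the Syt6 cluster. It measured 102, 57.3 and 81.6 CPM there in animals 1, 2 and 3, where the next highest cluster, Calb1, held 49.8, 38.5 and 57.3 CPM. Within each animal the Syt6 sum was the highest. The log2 fold change was 1.32 ± 0.25 (SE, edgeR adjusted p = 0.00522), a call lost without animal 3 (0.0783, and 0.0676 in the fit of 9 clusters). A lower call in the Thsd7a cluster, at -0.92 ± 0.27 (adjusted p = 0.0441), was lost without animal 1 (0.0716), animal 2 (0.263) or animal 3 (0.299) and without the block (0.0652). Cacna1c ranged over cluster means from 0.928 to 23.4 CPM and was called in neither fit. The other Cav2 genes were not called either: cluster means ran from 72.6 to 152 CPM for the P/Q-type gene Cacna1a and from 23.6 to 58.2 CPM for the R-type gene Cacna1e.

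The T-type genes (Cav3) each took another order over the clusters. Cacna1g (Cav3.1) was higher in the Osr1 cluster, with 75.2, 64.3 and 76.6 CPM in animals 1, 2 and 3, and lower in Thsd7a, with 3.35, 4.36 and 0.432 CPM. All Osr1 values lay above those of the other clusters, which ended at 48.4 CPM (Ptprm, animal 3), and all Thsd7a values lay below, since the lowest of the others was 5.18 CPM (Syt6, animal 1). In log2 terms the change was 3.05 ± 0.48 (SE, edgeR adjusted p = 0.00206) in Osr1 and -3.36 ± 0.68 (adjusted p = 0.00529) in Thsd7a. Against the 8 other clusters Osr1 stood at 1.99 ± 0.38 (adjusted p = 0.00239, but 0.0587 without animal 2), and with sums per sample the Thsd7a call was lost (0.0894).

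Cacna1h (Cav3.2) was highest in the Nrtn and Qrfpr clusters. It measured 84.1 and 72.3 CPM in Nrtn (animals 2 and 3) and 49.9 and 63.4 CPM in Qrfpr (animals 1 and 2), while Thsd7a held 0.419, 2.24 and 0.173 CPM. The Nrtn values lay above all others. In the fit of 9 clusters the log2 fold change was 3.20 ± 0.57 (SE, edgeR adjusted p = 0.00251) in Nrtn and -4.30 ± 0.85 (adjusted p = 0.00203) in Thsd7a, and both calls held in the alternatives run on 9 clusters. Nrtn has sums from animals 2 and 3 alone, so that leaving out either of them leaves 1 sum, which is then assumed to vary like the other clusters. Among 4 clusters the Thsd7a call, at -3.65 ± 0.94 (adjusted p = 0.0211), was lost without animal 1 (0.154), without animal 3 (0.130), without the shallowest cells (0.0557) and with sums per sample (0.311).

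Cacna1i (Cav3.3) was higher in the Thsd7a cluster and lower in the Syt6 cluster. It measured 62.5, 77.9 and 101 CPM in Thsd7a and 22.4, 5.27 and 3.09 CPM in Syt6. Values of other clusters fell among both: Osr1 held 88.6 CPM in animal 1, and Cxcl14 8.66 CPM in animal 2 and 99.9 CPM in animal 3. The log2 fold change was 1.90 ± 0.36 (SE, edgeR adjusted p = 0.00347) in Thsd7a, lost without animal 2 (0.0624), without animal 3 (0.0886) and with sums per sample (0.228). Against 8 clusters the Thsd7a value was 1.01 ± 0.40 and was not called (edgeR adjusted p = 0.142). Among 4 clusters it was -2.80 ± 0.50 (adjusted p = 0.00356) in Syt6, lost without animal 2 (0.0623) and without animal 3 (0.0514), while against 8 clusters the Syt6 value, -2.95 ± 0.62 (adjusted p = 0.00518), kept its call in every alternative.

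As a description, the 3 genes were also set against their own sum within each cluster and animal. These are shares of counts and are not corrected for gene length, so that they serve to compare clusters. Cacna1i made up 95.3% ± 3.71 (SD, n = 3) of the Cav3 counts in the Thsd7a cluster and a mean of 34.8% to 55.7% in the other 8. In Nrtn and Qrfpr Cacna1h had its largest shares, 43.5% ± 3.74 and 42.6% ± 7.71 (SD, n = 2 each). The summed Cav3 level was 178 ± 4.63 CPM (SD, n = 2) in Nrtn, 151 ± 35.3 CPM (n = 3) in Osr1, 83.5 ± 15.9 CPM (n = 3) in Thsd7a and 23.0 ± 12.3 CPM (n = 3) in Syt6. The Cxcl14 shares rested on animals that differed widely, with Cacna1i at 15.9% in 1 and 85.4% in the other.

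**Figure D3:**
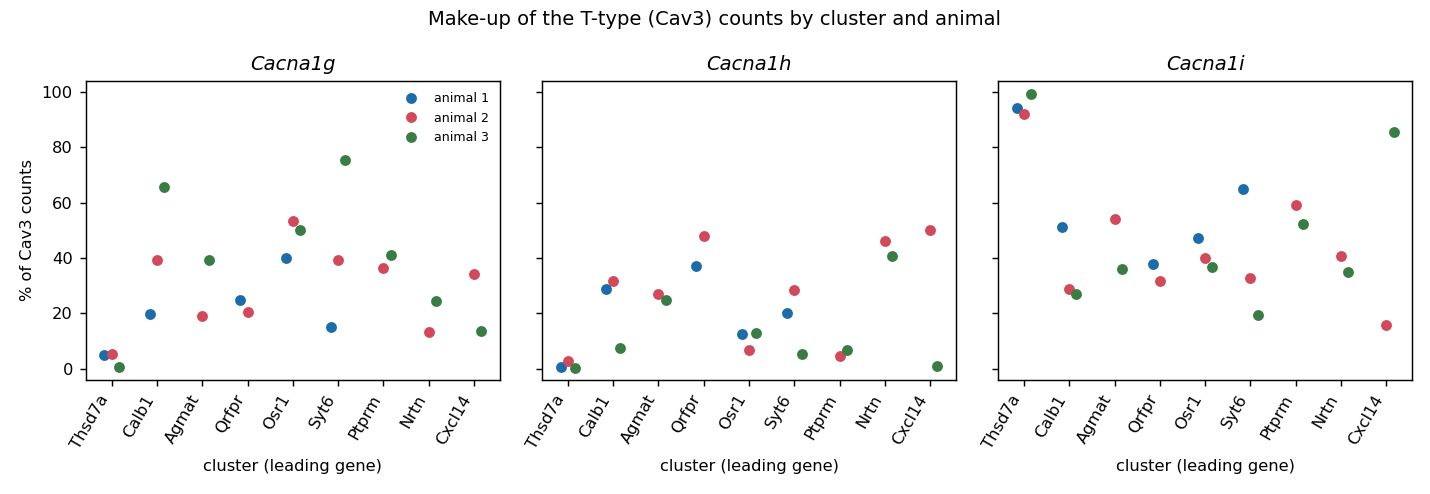
Share of the 3 Cav3 genes in their summed counts (y axis, percent) in 9 clusters (x axis), 1 panel per gene and 1 point per animal. In the Cacna1i panel the Thsd7a points lie at 92.2% to 99.4%, above every other point, and the Cxcl14 points lie far apart.

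Among the alpha2delta subunits, Cacna2d3 was lower in the Syt6 cluster, with the largest difference among the channel genes called there. It measured 19.0, 0.351 and 0.561 CPM there in animals 1, 2 and 3, from 11, 1 and 2 counts, and every other sum of the 9 clusters held at least 28.8 CPM (Osr1, animal 1). The Syt6 values therefore did not overlap those of the other 8 clusters with sums. Outside the fits, clusters 11 and 12, of 11 cells each, held 13 and 0 counts of Cacna2d3. A Cacna2d3 count was found in 4 of 71 Syt6 cells (5.63%) and 100 of 122 Thsd7a cells (82.0%); after thinning to 50000 counts it was found in 2 of 56 (3.57%) and 87 of 115 (75.7%). On the log2 scale the difference was -4.95 ± 0.86 (SE, edgeR adjusted p = 0.00313, but 0.0517 without animal 3), and -4.97 ± 0.75 (adjusted p = 0.000267) against 8 clusters, which all alternatives kept. In Thsd7a, with 128, 98.4 and 126 CPM, Cacna2d3 was called higher at 2.23 ± 0.52 (adjusted p = 0.0117), and that call was lost with DESeq2 (adjusted p = 0.108), without animal 2 (0.0907), without animal 3 (0.0848) and with sums per sample (0.684).

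Cacna2d1, an alpha2delta subunit that binds gabapentin, was higher in the Calb1 cluster. It measured 378, 280 and 307 CPM there, and the Osr1 values of 317, 269 and 202 CPM overlapped them. The log2 fold change was 0.89 ± 0.16 (SE, edgeR adjusted p = 0.00407, but 0.101 without animal 3). Lower calls in Syt6, at -0.78 ± 0.17 (adjusted p = 0.0145), and in Thsd7a, at -0.57 ± 0.17 (adjusted p = 0.0423), did not hold when animals were left out. The Syt6 call was lost without animal 2 (0.0523), animal 3 (0.175) or the shallowest cells (0.0685), and the Thsd7a call without animal 1 (0.299), animal 2 (0.0601), animal 3 (0.148) or the block (0.102). Cacna2d2 and Cacna2d4 were counted in 43 and 25 cells. Cacna2d4, with 3.35, 8.83 and 1.38 CPM in Thsd7a, was called there against 8 clusters at 4.95 ± 1.17 (adjusted p = 0.0191), which was lost without animal 1 (0.0586), animal 2 (0.239) or animal 3 (0.0503) and with DESeq2 (0.336).

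Of the beta subunits, which bind the pore on its inner side, Cacnb3 and Cacnb4 differed the most. Cacnb3 was lower in the Thsd7a cluster, with 10.5, 23.6 and 19.9 CPM in animals 1, 2 and 3, and all other sums were at 27.5 CPM (Nrtn, animal 3) or more. It was higher in Calb1, with 122, 165 and 137 CPM. In log2 terms the change was -2.37 ± 0.33 (SE, edgeR adjusted p = 0.000295) in Thsd7a, a call kept in every alternative, and 1.52 ± 0.26 (adjusted p = 0.00346, but 0.0524 without animal 3) in Calb1. In Osr1, with 146, 79.9 and 121 CPM, it was called at 1.11 ± 0.27 (adjusted p = 0.0284), which was lost without animal 1 (0.0903), animal 3 (0.247) or the shallowest cells (0.105).

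Cacnb4, the beta subunit mutated in the lethargic mouse, was higher in the Syt6 cluster and lower in Osr1. The Syt6 values of 630, 581 and 699 CPM lay above all other sums, the highest of which was 568 CPM (Nrtn, animal 3). In Osr1 Cacnb4 measured 326, 266 and 290 CPM. The log2 fold change was 0.80 ± 0.10 (SE, edgeR adjusted p = 0.000199) in Syt6 and -0.72 ± 0.10 (adjusted p = 0.00109) in Osr1. Both lie under the fold minimum of 1, and sums per sample held neither cluster. Both calls held in the other alternatives among 4 clusters. Against 8 clusters the Osr1 value was lost without animal 3 (adjusted p = 0.106). Cacnb1 was called lower in Thsd7a at -0.87 ± 0.22 (adjusted p = 0.0188), which was lost without animal 1 (0.0549), animal 2 (0.0560) or animal 3 (0.245). A higher call of Cacnb1 in Calb1 against 8 clusters, 0.73 ± 0.17 (adjusted p = 0.0177), was lost in the same way (0.168, 0.0540 and 0.336). Cacnb2 means ran from 10.4 to 31.1 CPM with no call.

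The gamma genes in the cell table were Cacng2, Cacng3, Cacng4, Cacng5 and Cacng7. Cacng3, an AMPA receptor partner of cortical neurons, was lower in the Syt6 cluster and higher in Calb1. It measured 98.4, 90.3 and 164 CPM in Syt6 and 516, 467 and 534 CPM in Calb1. The 164 CPM of animal 3 overlapped a Cxcl14 value of 156 CPM, and the lowest Calb1 value an Agmat value of 476 CPM. On the log2 scale the difference was -1.73 ± 0.14 (SE, edgeR adjusted p = 1.1e-05) in Syt6 and 1.08 ± 0.12 (adjusted p = 0.000152) in Calb1. In Thsd7a, with 421, 369 and 459 CPM, it was 0.72 ± 0.12 (adjusted p = 0.00137). With sums per sample, where Thsd7a and Calb1 are the only clusters left and are set against each other, the Thsd7a value was -0.23, and neither cluster's call held (adjusted p = 0.541).

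Cacng2 (stargazin) was higher in Thsd7a, and its values of 156, 114 and 114 CPM lay above all others, which ended at 102 CPM (Ptprm, animal 3). The log2 fold change was 0.85 ± 0.17 (SE, edgeR adjusted p = 0.00479), lost without animal 2 (0.0925), without animal 3 (0.0518) and with sums per sample (0.575). In Qrfpr, with 64.1 and 25.3 CPM in animals 1 and 2, it was called at -0.97 ± 0.24 (adjusted p = 0.0289) against 8 clusters. That call was lost without animal 1 (0.0877), animal 2 (0.869) or animal 3 (0.132) and without the block (0.316). Cacng4, Cacng5 and Cacng7 were counted in 12, 10 and 25 cells.

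Among the HCN genes, Hcn2 and Hcn3 were called nowhere in the cells, with cluster means of 3.77 to 18.2 CPM and 1.48 to 23.8 CPM. Hcn4, the slow subunit of the heart's pacemaker, had 16, 3 and 30 counts in Thsd7a, 20 in Ptprm and 1 in Nrtn. Its call in Thsd7a against 8 clusters, 5.07 ± 1.29 (edgeR adjusted p = 0.0386), was lost without animal 1 (0.136), animal 2 (0.0741) or animal 3 (0.294).

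Channel genes tested in both fits of the cells and called in neither were Cacna1a, Cacna1c, Cacna1e, Cacnb2, Cacng4, Hcn2, Hcn3 and Scn3a. Cacna2d2, Cacng7 and Scn9a passed the filter among 9 clusters alone and were not called there, and Cacng5 passed it in neither fit. Of the calls among 4 clusters described above, those of Cacna1d, Cacna1i, Cacna2d1, Cacna2d3 and Cacnb1 in Thsd7a, of Scn3b in Osr1 and of Cacna2d1, Scn3b and Scn4b in Syt6 were not made against 8 clusters, where they kept their direction with edgeR adjusted p from 0.0588 (Cacnb1) to 0.587 (Scn3b in Syt6). Of 34 member calls among 4 clusters, 12 were kept in every alternative in which they were tested, the fold minimum aside. Of 37 among 9 clusters, 15 were.

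A list of channel partners, which also holds the pores Scn2a1 and Nalcn, was counted in the fit of 4 clusters. Of 36 tested, 9 were called in Thsd7a (4 higher, 5 lower), 6 in Calb1 (3 and 3), 5 in Osr1 (all higher) and 7 in Syt6 (5 and 2). Over all genes, the shares called in these clusters were 12.8%, 5.77%, 5.65% and 7.71%. Of all genes, 7.47%, 3.78%, 3.75% and 3.99% were called higher and 5.38%, 1.99%, 1.9% and 3.73% lower. Their median log2 fold changes were 0.09, -0.03, -0.06 and 0.17, against 0.08, 0.04, 0.02 and -0.03 over all genes. Pex5l encodes TRIP8b, which binds HCN channels and sets their place in dendrites. It measured 108, 115 and 143 CPM in Thsd7a and was called at 1.57 ± 0.29 (SE, edgeR adjusted p = 0.00279), although Qrfpr and Nrtn held 77.4 to 198 CPM. Rims3, a relative of the active zone proteins that bind calcium channels, was higher in Thsd7a at 2.06 ± 0.27 (adjusted p = 0.000195). The AMPA receptor partner Gsg1l was lower there at -5.57 ± 0.79 (adjusted p = 0.000389), with 1.68, 1.79 and 0.0864 CPM.

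In Calb1 Gsg1l was higher at 3.21 ± 0.50 (edgeR adjusted p = 0.0017), with 113, 80.6 and 81.6 CPM, and Stac2, an adaptor of L-type channels, was lower at -2.75 ± 0.35 (adjusted p = 0.000439). In Syt6 Stac2 was higher at 2.35 ± 0.26 (adjusted p = 0.00011), with 129, 118 and 84.7 CPM. The calls of Pex5l, Rims3, Gsg1l and of Stac2 in Calb1 and Syt6 held in all alternatives run for partners. Calls of Cnih3 (Calb1 and Osr1), Rimbp2 and Stac2 (Osr1), and Flna and Rem2 (Syt6) were lost without at least 1 animal, with adjusted p from 0.0937 to 0.307 where lost in this way.

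The channel genes were also measured in spots of intact sections. A spot covers several cells, so that fewer cells of a type and less RNA per cell cannot be told apart. Spots were grouped into 10 zones without the channel and partner genes, with each gene centred within its section, a choice made after seeing the data, and zones are called by leading genes. Each zone was set against the mean of the other 9 on the log scale, by edgeR with the section as a block. Of 44 names, 31 passed the low-count filter and 22 were called in at least 1 zone. The share of all genes called in at least 1 zone was not counted.

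Channel genes were called most often in the Trh zone (11 of 31, 5 higher and 6 lower, background 11.7%, of which 5.94% higher and 5.79% lower) and the Tshz2 zone (11, 6 higher and 5 lower, background 9.18%, of which 5.27% and 3.92%). The Rspo1 zone had 8 (7 higher, 1 lower, background 4.48%, of which 3.11% and 1.37%), the Agmat zone 7 (6.4%), the Myl4 zone 7, all higher (2.1%, of which 1.46% higher and 0.643% lower), the Cyp26b1 zone 6 (3.83%), the Foxp2 zone 4 (1 higher, 3 lower, background 6.9%, of which 3.96% and 2.94%) and the Rai14 zone 4 (3.32%). In the Myoc and Hbb-bt zones edgeR called 0, against backgrounds of 6.91% and 0.173%. Of the 58 calls, 28 held in all alternatives in which single calls were followed. These leave out the fold minimum and the zones without centring, with 16 and 6 calls.

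**Figure D4:**
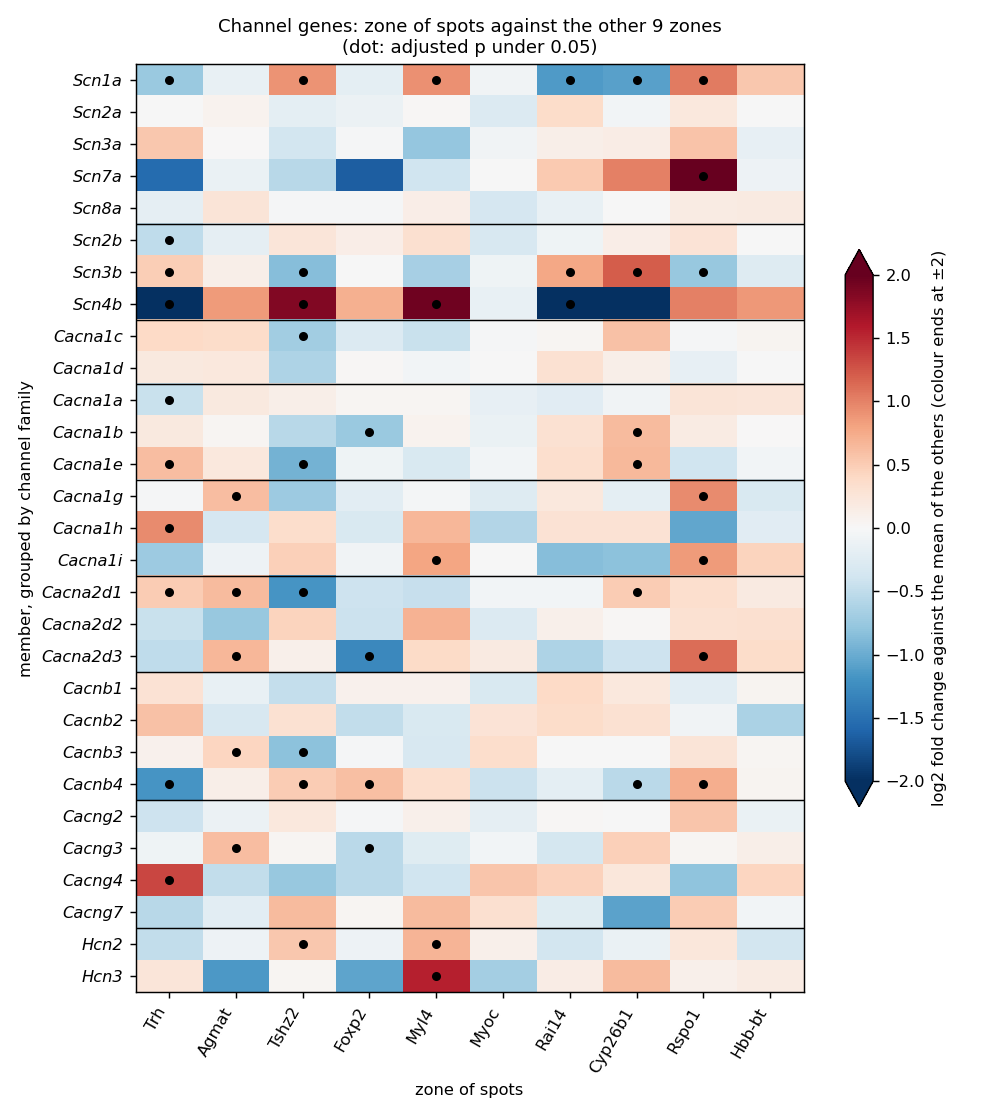
Log2 fold change of 29 channel genes (rows, by family) in each of 10 spot zones (columns) against the mean of the other 9, from the edgeR fit on sums per section; dots mark adjusted p under 0.05. Scn4b and Scn1a are marked higher in the Tshz2 column, where Cacna2d1 is marked lower, and the Myoc and Hbb-bt columns hold no dot.

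In the Tshz2 zone Scn4b was higher and Cacna2d1 lower. Scn4b measured 20.6 and 58.9 CPM there in sections S4 and S8 and 34.2 and 46.9 CPM in the Myl4 zone, so that the S4 value of the Tshz2 zone was the lower of the pair. By section, the log2 ratio of the Tshz2 zone to the mean of the other zones was 0.52 in S4 and 1.73 in S8, so that the size of the difference rests mostly on S8. From the fit over both sections the log2 fold changes were 1.86 ± 0.29 (SE, edgeR adjusted p = 1.26e-05) in the Tshz2 zone and 1.95 ± 0.30 (adjusted p = 4.96e-05) in the Myl4 zone. The fit averages the other zones on the log scale and the ratios by section average CPM, so the measures differ. In the Myl4 zone the ratios by section were 1.38 in S4 and 1.30 in S8. Cacna2d1 was lower in the Tshz2 zone than in any other in both sections, with 74.8 and 92.0 CPM, at -1.17 ± 0.16 (adjusted p = 5.12e-07).

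In the Myl4 zone Hcn3 and Scn1a were higher as well. Hcn3 measured 21.0 and 24.2 CPM, above all other zones, at 1.55 ± 0.33 (SE, edgeR adjusted p = 0.00459). Scn1a measured 90.6 and 109 CPM there, at 0.91 ± 0.16 (adjusted p = 0.000269). Pvalb marks an inhibitory class known to express Scn1a, but was also counted in the Thsd7a and Nrtn clusters of cells. It stood at 344 and 280 CPM in the Tshz2 zone, 294 and 156 CPM in Myl4 and 315 and 220 CPM in Rspo1, but at 40.4 and 24.0 CPM in Trh. Other inhibitory markers took other orders. In Tshz2, Myl4 and Trh, Sst stood at 352 and 345, 238 and 418, and 407 and 422 CPM. Gad2 stood at 128 and 102, 98.8 and 77.8, and 110 and 93.8 CPM, and Gad1 at 244 and 291, 227 and 201, and 172 and 159 CPM. All 8 inhibitory markers had counts in every section sum but 1, with 7 there, and their summed level ran from 611 to 2696 CPM. Their part in the Scn1a and Scn4b values was not tested.

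In the Trh zone Scn4b was lower, with 0 and 4.69 CPM, at -2.55 ± 0.62 (SE, edgeR adjusted p = 0.00305). Cacnb4 was lower there too, with 80.4 and 76.3 CPM, below all other zones, at -1.18 ± 0.15 (adjusted p = 9.66e-08). Cacng4, the gamma gene counted in 12 cells of the cell table, was counted in 261 spots and was higher in the Trh zone, with 35.6 and 55.1 CPM, at 1.33 ± 0.23 (adjusted p = 3.77e-05). The summed oligodendrocyte markers, all 5 counted, stood at 694 and 1026 CPM in this zone and at up to 4790 and 6077 CPM in the Foxp2 zone. Their part in these values was not tested.

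In the Foxp2 zone Cacna2d3 and Cacna1b were lower. Cacna2d3 measured 27.7 and 27.2 CPM, the lowest value of each section, at -1.28 ± 0.21 (SE, edgeR adjusted p = 1.31e-05). Cacna1b measured 35.1 and 40.2 CPM, again the lowest of each section, at -0.74 ± 0.19 (adjusted p = 0.00849), but missed the threshold with DESeq2 (0.0778). Cacnb4 was higher at 0.61 ± 0.12 (adjusted p = 0.000292), with 282 and 200 CPM. The summed oligodendrocyte markers were highest in the Foxp2 zone, at 4790 and 6077 CPM against a median of 1999 CPM over all zone sums, and their part in these values was not tested. In the Agmat zone Cacna2d1 was higher, with 271 and 244 CPM, at 0.64 ± 0.12 (adjusted p = 0.000243). Cacna2d3 was called higher there at 0.66 ± 0.15 (adjusted p = 0.00282, but 0.0645 with DESeq2).

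The zone fits of the sections and the cluster fits of the cells come from separate libraries, and 28 channel genes were tested in both. They were set side by side for 3 pairs. The Syt6 cluster and the Foxp2 zone share layer 6 corticothalamic markers, and the Thsd7a cluster and the Tshz2 zone the leading gene Il22. The Calb1 cluster and the Agmat zone are led by different layer 2/3 markers, Calb1 and Otof in the cluster and Cux2 in the zone. They share no leading gene, whereas the Agmat cluster shares Agmat and Stard8 with that zone and was not set beside it. Between the Syt6 cluster and the Foxp2 zone, the log2 fold changes gave Pearson's r = 0.67 and Spearman's rho = 0.62 across genes, which are not independent replicates. There 4 of 6 genes called in the cluster and 4 of 4 called in the zone were shared and had the same sign (Cacna1b, Cacna2d3, Cacnb4, Cacng3). Between the Thsd7a cluster and the Tshz2 zone the values were 0.22 and 0.34, with 4 of 9 calls of the cluster and 4 of 11 of the zone shared and of the same sign (among them Cacnb3, Scn1a and Scn3b). Between the Calb1 cluster and the Agmat zone they were 0.24 and 0.34, with 3 of 5 and 3 of 7 calls shared and of the same sign (Cacna2d1, Cacnb3, Cacng3). The correlations and shared calls were not computed over all genes. They therefore do not show whether channel genes differ in this from genes at large. Scn4b took opposite signs: -3.03 and not called in the Thsd7a cluster, 1.86 and called in the Tshz2 zone.

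**Figure D5:**
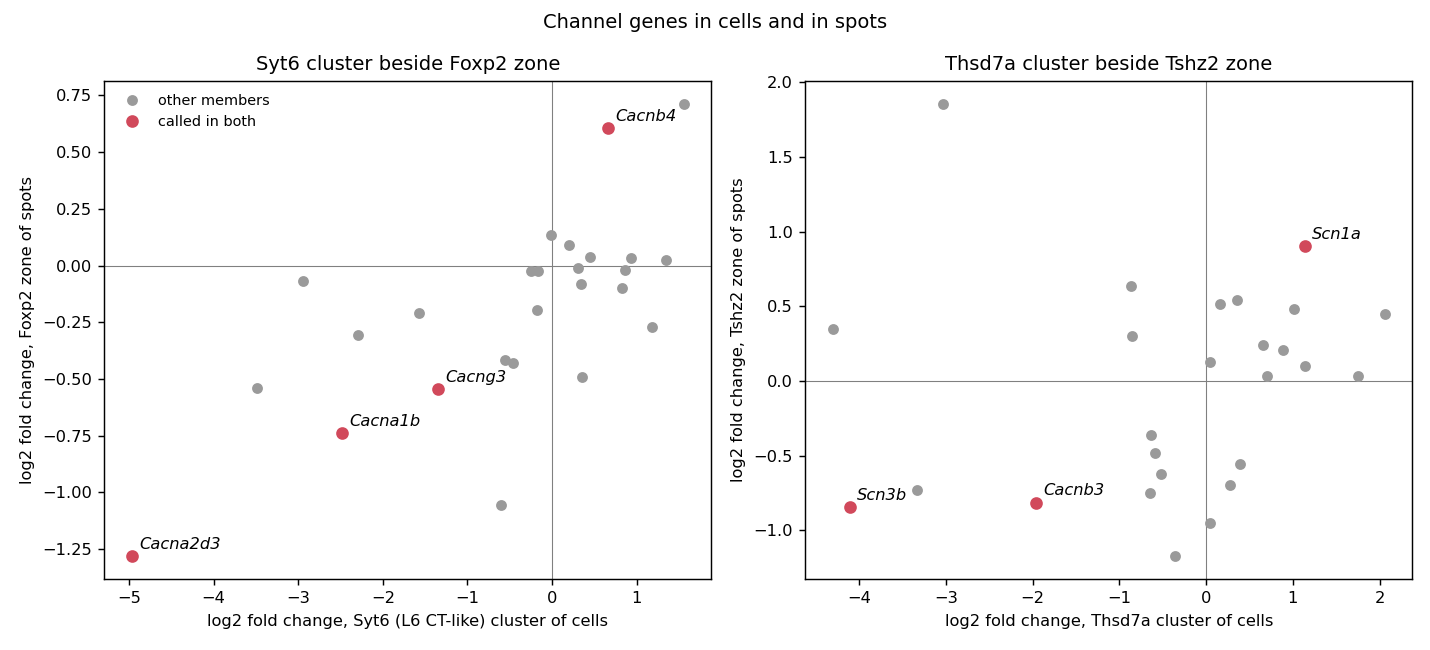
Log2 fold change of 26 channel genes in a cluster of cells (x axis) and in a zone of spots (y axis), for the Syt6 and Foxp2 pair (left) and the Thsd7a and Tshz2 pair (right); red points are genes called in both. In the left panel the 4 red points are Cacna1b, Cacna2d3, Cacnb4 and Cacng3, and in the right panel the grey point at -3.03 and 1.86 is Scn4b.

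The 12 names listed in the spot table alone were mostly of genes rare in the sections, and 1 of them, Scn2a, is the current name of the gene listed as Scn2a1 in the cell table. Scn2a and Scn8a, the main sodium channel pores of cortical axons, were the exceptions: they were counted in 1485 and 1272 of 1973 spots, at 198 and 227 CPM and at 139 and 172 CPM in S4 and S8, and were called in none of the 10 zones. The skeletal muscle pore Scn4a was counted in 0 of 1973 spots, which allows a share of up to 0.152%. Scn10a and Scn11a of sensory neurons were counted in 8 and 4 spots, the retinal Cacna1f in 3 and the muscle genes Cacna1s and Cacng1 in 2 and 3. Cacng6 and Cacng8 were counted in 19 and 62 spots. Scn7a, which encodes the sodium-sensing channel Nax, was counted in 57 spots and, named here after its values were seen, measured 21.4 and 19.1 CPM in the Rspo1 zone and at most 7.26 CPM elsewhere. Its log2 fold change there was 2.85 ± 0.51 (SE, edgeR adjusted p = 0.000125).

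The 3 dissection levels were compared over all neurons, with 1 sum per animal and level. Of 32 channel genes tested, edgeR called 0 between posterior and anterior (background 0.103% of 13628 genes) and 0 between medium and anterior (0.00734%), and DESeq2 called 0. In each comparison 4 had an unadjusted p under 0.05 with edgeR, a cutoff at which the share of all genes was not counted. Cacna1h measured 18.8, 24.7 and 14.3 CPM in anterior sums of animals 1, 2 and 3 and 36.4, 42.0 and 27.0 CPM in posterior sums. The groups did not overlap, and the posterior sum was the larger in 3 of 3 animals, but the difference of 0.87 ± 0.25 did not pass (edgeR adjusted p = 0.532). All 78 cells of the Qrfpr cluster, where Cacna1h stood at 49.9 and 63.4 CPM, came from posterior samples. The part of that cluster in the sums was not tested.

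Within clusters, where the levels could be compared in Thsd7a and Syt6 (medium against anterior) and in Osr1 (posterior against anterior), edgeR called 0 of 24, 0 of 18 and 0 of 20 channel genes, with 1 in each at an unadjusted p under 0.05. The backgrounds of adjusted calls were 0%, 0% and 0.0115%, and the share of all genes at the unadjusted cutoff was not counted.

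Over the 11 samples, with all cells of a sample summed, the channel genes kept their level to different degrees. Scn2b varied the least, from 224 to 271 CPM (1.21-fold), and Cacnb4 ran from 355 to 511 CPM (1.44-fold). Scn4b ran from 17.4 to 49.4 CPM (2.84-fold). Animal 1 had the highest value in all 5 clusters in which it had a sum for 3 of 31 channel genes, Cacna1b and Cacng2 among them, and the lowest for 1 (Hcn2). The shares of all genes in these positions were not counted.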

How the data were processed

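The deposited cell table holds counts per gene for 765 neurons, 1 cell per well, and the deposited spot table counts per gene for 1973 Visium spots; all spot totals equalled the deposited totals. The submitters' processing notes name NCBIM37, mm10, Seurat and Space Ranger without roles; aligner and counting rule, reads or molecules, and use of strand are not given in the sources used here. No doublet caller was run, 0 count columns were unused, and which labelled section is S4 or S8 was not used. The labels do not say whether the sections came from separate animals.

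Members, partner and marker lists, and the pairs of clusters and zones, were chosen with earlier results of these data known. Clusters and zones were drawn with scanpy 1.11.5 (Python 3.11.15; 10000 per cell, log scale, 2000 variable genes, 30 components, 15 neighbours, Leiden resolution 1, seed 1) without members and partners, of which 8 members (cells) and 9 (spots) would have been among the variable genes. Genes correlated with them still drew the clusters, so that the tests describe the clusters. Counts were summed per animal and cluster (at least 10 cells), per animal and level, and per section and zone.

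Sums were fitted with edgeR 4.0.16 (R 4.3.3; TMM, filterByExpr, quasi-likelihood test) with the animal, taken from the deposited table, or the section as a block. Calls were made at a Benjamini-Hochberg adjusted p under 0.05. With the block, p-values measure how differences between groups vary across animals (3, or 2 for clusters with sums from 2) or across 2 sections. This spread is estimated over all groups of a fit and not from the sums of 1 group. The SE is the absolute log2 fold change over the square root of F. CPM of members use TMM library sizes and CPM of markers raw totals; intervals and limits for counts of 0 cover counting error only. Alternatives were DESeq2 1.42.0, upper-quartile scaling, no filter, no block, each animal left out, sums per sample, no shallowest 10% of cells, members kept in the clustering, zones without centring and a log2 fold minimum of 1. Single calls were not followed for zones without centring or the fold minimum, and statements that a call held leave both out. Sums per sample covered 2 of the 4 clusters (Thsd7a and Calb1) and 5 of the 9. Named genes were, by rule, the called members with the largest fold change, up to 4 per cluster, 3 per zone and 3 partners; the other called members were named after their values were seen. On simulated data for the Thsd7a cluster among 9 clusters (12622 genes) the fit recovered 69 of 100 genes changed by a log2 fold of 2 and 3 of 100 changed by 1, with 10 false calls. Some members are not reported here and are left out of the figures.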

Additional observations from a re-analysis of the deposited data

How the results depend on the processing

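Counts of member calls moved with the processing. Among 4 clusters the 34 calls became 17 to 29 when 1 animal was left out, the lowest without animal 3, then 22 with a log2 fold change of at least 1, and 10 with sums per sample, where 2 clusters remain. Among 9 clusters the 37 became 26 to 33 without 1 animal, 23 with the fold minimum and 24 with sums per sample. The 58 zone calls became 35 with DESeq2, 16 with the fold minimum and 6 with regions drawn without centring. Partner calls went from 27 to 45 with DESeq2. Calls between levels stayed at 0 in every alternative run. Without the replicate block there were 30, 39 and 33 calls among 4 clusters, 9 clusters and zones; the pairing is by animal or section. Named member calls kept their direction except Cacng3 in the Thsd7a cluster, which stood at -0.23 with sums per sample against Calb1. Among 4 clusters 61 of the recomputed member values kept their direction and lost their call, beside the reversed Cacng3 value, among 9 clusters 56 and in zones 55; where an animal ended a call it is named beside the result, and the cause was not tested. Sums of at least 20 cells were not run, since 1 cluster has 3 of them, and leaving out a section gives values without a test. Channel genes counted in few cells, such as Hcn4, Cacna2d4 and Cacng4, rest on few counts, and the part of depth in this was not tested.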
